A study of Mus musculus with 12 samples.

Results

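Cholesterol is made in the liver, taken up from lipoproteins, stored as esters and shed into bile, and 31 genes of this system were followed in livers with and without *Yap1*. The genes were chosen by symbol from the deposited table: 19 enzymes of synthesis, 4 genes of the sterol sensor that controls them, 3 genes of uptake, 3 of esterification, the cytosolic carrier *Stard4* and the lysosomal exporter *Npc1*, with *Ggps1* of the isoprenoid side branch counted among the 19. All 31 were found among the 25676 genes of the table, and all 31 were abundant enough to be tested.

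RNA was sequenced from the whole livers of 12 C57BL/6 mice, each giving 1 library. In 6 mice (KO) *Yap1*, which encodes a co-activator of the TEAD transcription factors, had been removed with Cre recombinase under *Foxa3* control (genotype label Foxa3-Cre YAP1 KO), and 6 mice were labelled WT, with 3 males and 3 females in each genotype. *Foxa3*-driven Cre acts in the embryonic foregut endoderm, so hepatocytes and bile duct cells both descend from the targeted cells, while immune and endothelial cells do not come from that lineage. The series title describes the mice as 3 to 4 months old, without an age for each animal, and calls the WT mice healthy. Whether WT mice carried Cre or a floxed allele is not stated in the labels.

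*Yap1* itself was between 23.0 and 34.9 TPM (the share of a library's transcripts, corrected for transcript length and scaled to a fixed sum) in WT and between 0.994 and 3.11 TPM in KO. Whole reads were recovered from the steps in the low TPM values for genes holding 91.7% to 95.8% of each library's TPM. They summed to between 17956574 and 25517977 reads per library, a part of the full depth. The members had between 53 reads (lowest *Soat1* library) and 28546 reads (highest *Hmgcs1* library). WT female 3 and KO female 1 carried much lower animal numbers than the other mice. They are called the early animal series here, and the rest the late series. WT male 2 carried a library number far from the others. The labels name no series, batch or date. Because most genes were shifted together, with a median log2 fold change of 0.35 over the 12278 genes tested, each comparison is given on the deposited scale and after the libraries were rescaled by the median of ratios, which moved that median to -0.04. "Rose" and "fell" are used only of genes that passed on both scales in the comparison named. Hepatocyte markers (*Alb*, *Ttr*, *Apoa1* and 4 others) were above 0 in every library and summed to between 76022 and 103286 TPM in WT and between 57913 and 83195 TPM in KO. Most of the sum was *Alb*, between 54248 and 83194 TPM in WT and between 42088 and 67819 TPM in KO. *Ttr* was the 1 marker of the 7 that fell (4.81% of all tested genes), and *Hnf4a*, a transcription factor of hepatocytes, was between 171 and 272 TPM in WT and between 216 and 342 TPM in KO.

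Cholesterol synthesis starts from acetyl-CoA. The mevalonate enzymes build farnesyl diphosphate, squalene is made from it and closed to lanosterol, and lanosterol is trimmed and reduced to cholesterol. The pathway is controlled by SREBP2, the product of *Srebf2*: when membrane sterol is low, the escort protein SCAP carries SREBP2 from the endoplasmic reticulum to the Golgi, where it is cut into an active transcription factor, and when sterol is high the INSIG proteins hold SCAP back. SREBP2 binds sterol regulatory elements near the start of most of these genes, often beside CCAAT boxes bound by NF-Y.

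The promoters of the 3 members that held the searched core of a sterol regulatory element are printed because this element is the known link between the sensor and the enzymes. The *Acat2* window belongs to a gene that rose in KO. *Hmgcs1* and *Insig1*, which did not pass on both scales, were added after their values had been seen, since both encode textbook SREBP2 targets. Each window runs from 250 bases before to 50 bases after the start site in the gene's own direction, from RefSeq on build GRCm38.p6, and capitals mark matches to the core, in *Hmgcs1* to its longer form, or to a CCAAT box, on either strand.
Acat2 (chr17:12960676-12960975, minus strand): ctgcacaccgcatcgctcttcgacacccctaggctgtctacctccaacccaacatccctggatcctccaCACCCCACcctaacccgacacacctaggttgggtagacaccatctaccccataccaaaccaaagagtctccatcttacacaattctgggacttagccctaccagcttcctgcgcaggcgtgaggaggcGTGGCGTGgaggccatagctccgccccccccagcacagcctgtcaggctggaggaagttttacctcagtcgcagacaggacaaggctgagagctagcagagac
Hmgcs1 (chr13:119690101-119690400, plus strand): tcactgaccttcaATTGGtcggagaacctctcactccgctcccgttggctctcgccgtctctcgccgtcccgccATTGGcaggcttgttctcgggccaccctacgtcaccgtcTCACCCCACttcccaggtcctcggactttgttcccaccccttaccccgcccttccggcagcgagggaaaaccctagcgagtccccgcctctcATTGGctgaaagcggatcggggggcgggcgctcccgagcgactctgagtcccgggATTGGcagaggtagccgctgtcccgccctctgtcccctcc
Insig1 (chr5:28071162-28071461, plus strand): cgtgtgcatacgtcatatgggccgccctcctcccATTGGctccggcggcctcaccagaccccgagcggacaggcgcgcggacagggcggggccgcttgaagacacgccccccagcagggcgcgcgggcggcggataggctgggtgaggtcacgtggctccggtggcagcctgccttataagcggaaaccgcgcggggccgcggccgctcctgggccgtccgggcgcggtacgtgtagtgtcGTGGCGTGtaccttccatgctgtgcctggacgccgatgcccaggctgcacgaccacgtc

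The core was searched as CACNCCAC and a longer form, which contains it, as TCACNCCAC, both on either strand with N for any base. RefSeq windows were matched for 24 of the 31 members, in 30 windows. *Acat2*, with 2 matches, and *Hmgcs1* and *Insig1*, with 1 each, held the core, which was present in 6.24% of all 32851 windows of this length. *Hmgcs1* alone among the matched members held the longer form, found in 1.24% of all windows. A CCAAT box (CCAAT or its reverse ATTGG) was present in 21 of the 30 member windows (70.0%) and in 37.4% of all windows. *Hmgcs1* had 4 of them and *Acat2* had 0. These are matches of letters and say nothing of binding in these livers.

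With sex as a covariate in the limma fit, 17 of the 31 members were higher in KO on the deposited scale (adjusted p under 0.05), where 50.1% of all tested genes were called higher, and 2 were lower, where 4.82% of all genes were. After rescaling, 4 members were higher (20.9% of all genes) and 7 lower (18.7%). *Acat2*, *Srebf2*, *Soat1* and *Scarb1* rose on both scales (20.9% of all genes) and *Ebp* and *Stard4* fell on both (4.81%). The share of members called higher on the deposited scale was thus close to that of all genes. The median log2 fold change of the members was 0.54, beside 0.35 for all tested genes, and 0.08 beside -0.04 after rescaling.

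**Figure D1:**
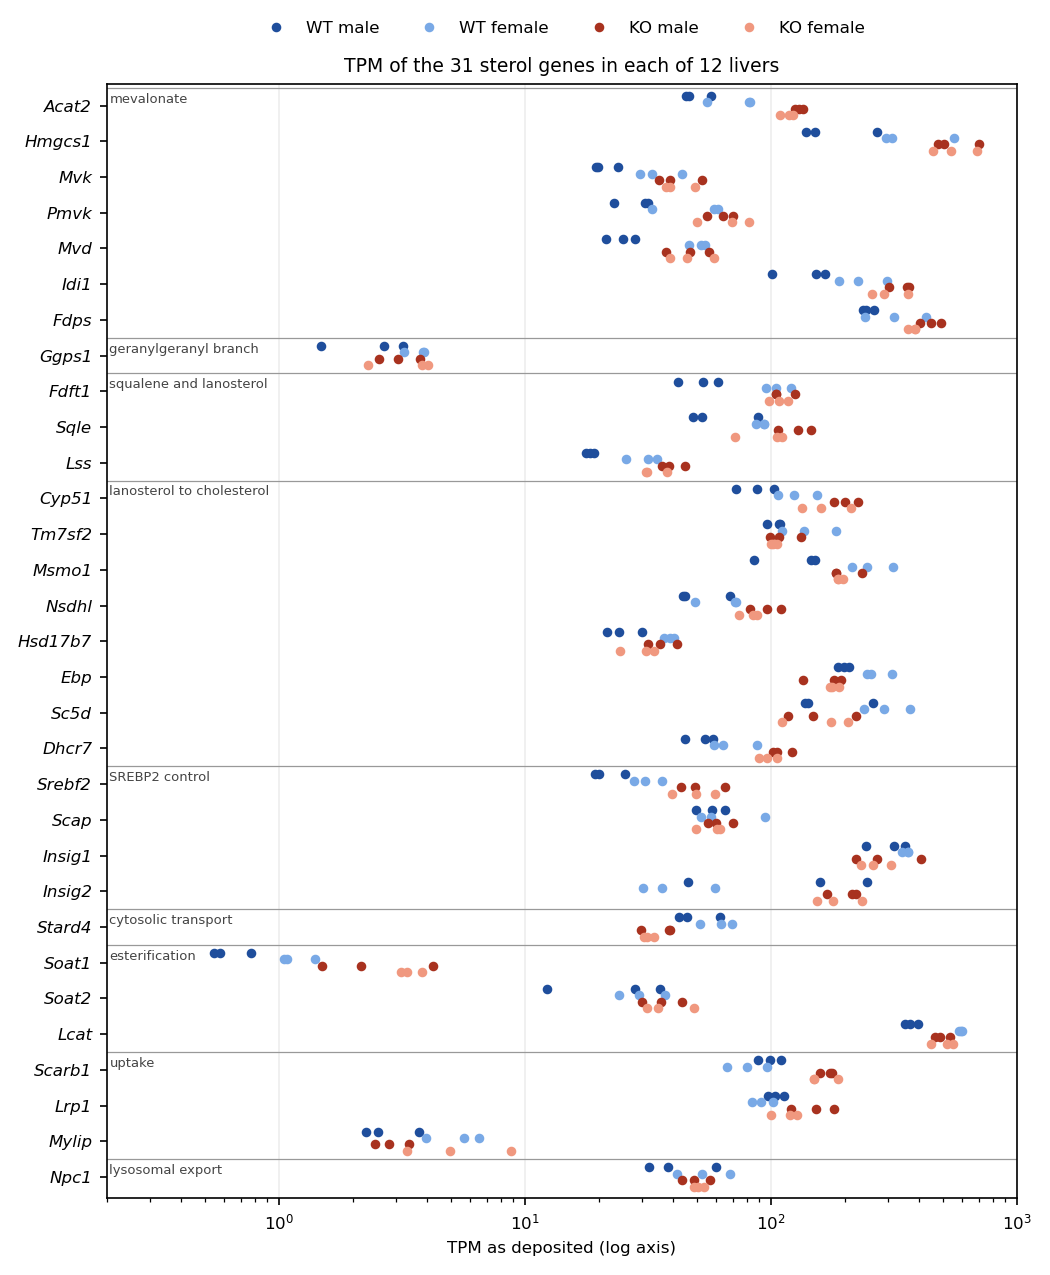
TPM of the 31 genes in each of the 12 livers (log axis), grouped by role, with 1 point per liver coloured by genotype and sex. For *Acat2*, *Srebf2*, *Soat1* and *Scarb1* every KO point lies to the right of every WT point, and for *Stard4* every KO point lies to the left.

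Levels of the members spanned a wide range in WT. *Lcat*, the plasma cholesterol esterifying enzyme secreted by hepatocytes, was highest at 482 ± 122 TPM (SD, n = 6), ahead of *Insig1* at 330 ± 44.6, *Fdps* at 289 ± 75.4 and *Hmgcs1* at 287 ± 151 TPM, which did not differ from each other beyond their spread. At the other end stood *Mylip* at 4.11 ± 1.69 TPM, *Ggps1* at 3.06 ± 0.896 TPM and *Soat1* at 0.905 ± 0.335 TPM.

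Among the 7 mevalonate enzymes, *Acat2* rose, and 5 others were higher on the deposited scale only. *Acat2*, the cytosolic thiolase that joins acetyl-CoA units for sterol synthesis, stood at 45.3, 46.4 and 57.3 TPM in the WT males and 54.9, 81.4 and 82.4 TPM in the WT females. In KO it reached 130, 135 and 126 TPM in males and 109, 123 and 119 TPM in females. All 6 KO livers were above all 6 WT livers, and the WT males were the lowest group. The mean was 2.02-fold higher in KO (1.49-fold after rescaling), which was 1.04 ± 0.146 on the log2 scale (SE; limma adjusted p = 5.87e-05) as deposited and 0.58 ± 0.138 (adjusted p = 0.00479) after rescaling. The gene is ENSMUSG00000023832, on chromosome 17 from 12942890 to 12960747 (minus strand, GRCm38).

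*Hmgcs1*, the cytosolic HMG-CoA synthase that opens the mevalonate route proper, was measured at 140, 270 and 151 TPM in WT males and 296, 310 and 556 TPM in WT females. KO males had 478, 508 and 706 TPM and KO females 539, 688 and 459 TPM. The groups overlapped through 1 liver, WT female 3, whose 556 TPM exceeded 4 of the 6 KO livers. Its log2 fold change was 1.11 ± 0.247 (SE; limma adjusted p = 0.00207) on the deposited scale and 0.64 ± 0.247 after rescaling, where it did not pass (adjusted p = 0.0546). A limma-voom fit on the recovered reads, chosen after seeing the data, gave 0.65 (limma-voom adjusted p = 0.0459). Leaving out WT female 3, WT male 2, KO female 1 or KO female 3 brought *Hmgcs1* past the threshold on both scales, with rescaled log2 fold changes of 0.82, 0.75, 0.72 and 0.74.

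The remaining mevalonate enzymes had the same sign of difference on the deposited scale and smaller or no difference after rescaling. *Idi1*, the isopentenyl diphosphate isomerase, had log2 fold changes of 0.83 and 0.37 on the deposited and rescaled scales. For *Pmvk*, the phosphomevalonate kinase, they were 0.77 and 0.32. *Mvk*, the mevalonate kinase, had 0.60 and 0.15, and *Fdps*, the farnesyl diphosphate synthase, had 0.54 and 0.08. None of these 4 passed after rescaling, and *Mvd*, the mevalonate diphosphate decarboxylase, passed on neither scale (0.39 and -0.07). *Ggps1*, which diverts farnesyl diphosphate to geranylgeranyl diphosphate for protein prenylation, had 0.08 and -0.26 and also passed on neither.

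**Figure D2:**
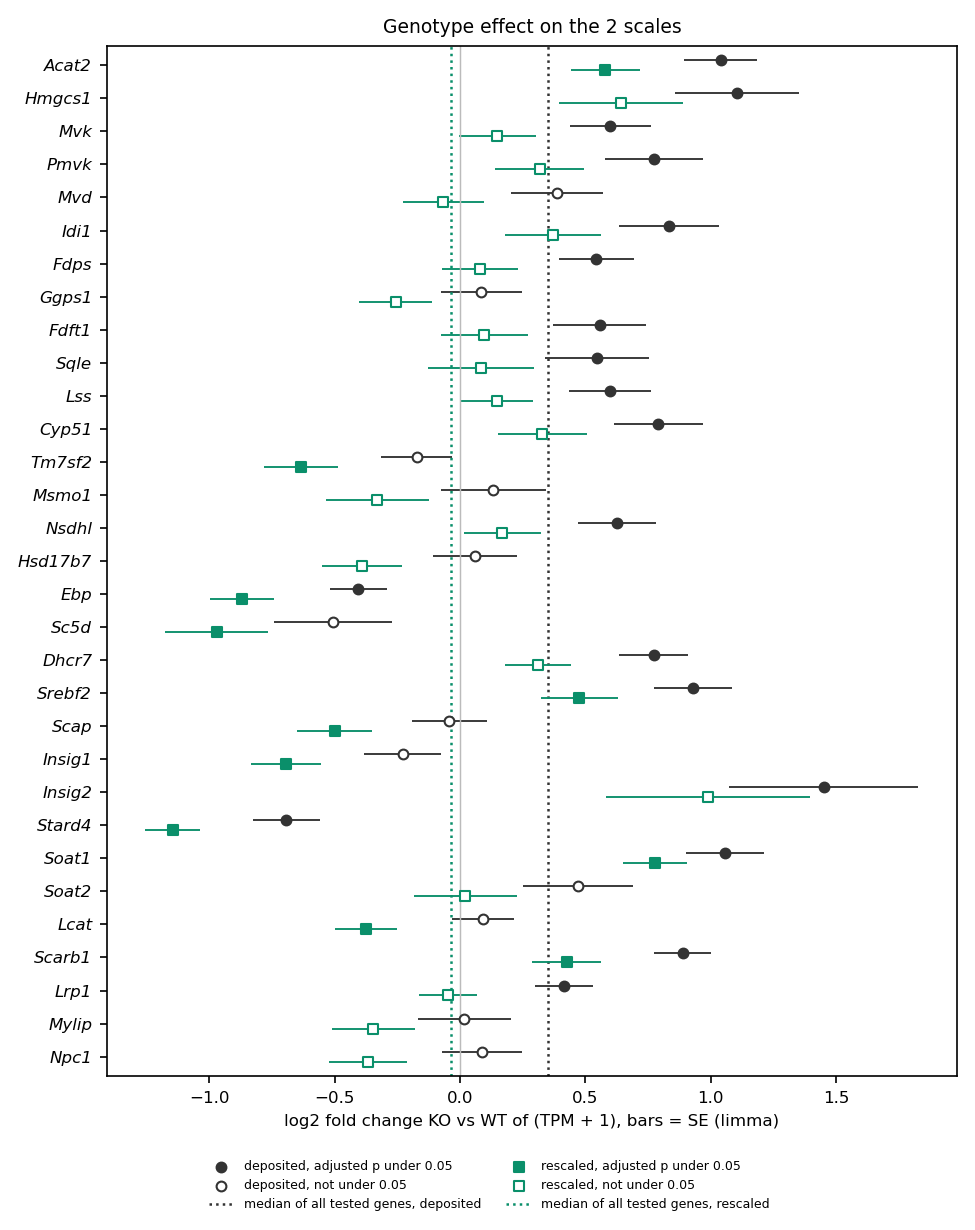
Genotype effect for each gene as a log2 fold change of (TPM + 1), KO against WT, with its standard error, on the deposited scale (circles) and after median-of-ratios rescaling (squares); filled symbols have a limma adjusted p under 0.05 and dotted lines mark the medians of all tested genes. Mevalonate enzymes lie mostly to the right of the dotted line of their scale, while *Tm7sf2*, *Ebp*, *Sc5d*, *Insig1* and *Stard4* lie to its left.

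The 3 enzymes that lead from farnesyl diphosphate to lanosterol were higher in KO on the deposited scale only. *Fdft1*, squalene synthase, had a log2 fold change of 0.56 and 0.10 on the deposited and rescaled scales, *Sqle*, squalene epoxidase, 0.54 and 0.08, and *Lss*, lanosterol synthase, 0.60 and 0.15. The deposited call of *Sqle* was the least firm (adjusted p = 0.0397) and was lost without WT male 1, WT male 3, any 1 of the 3 KO males or KO female 3 (log2 fold changes 0.42 to 0.55). The *Fdft1* call was lost without KO male 2 (0.46) or KO male 3 (0.52).

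The 8 enzymes between lanosterol and cholesterol divided. *Cyp51*, the lanosterol demethylase, *Nsdhl*, a sterol dehydrogenase that completes removal of the methyl groups, and *Dhcr7*, the final reductase of the Kandutsch-Russell branch, were higher in KO on the deposited scale, with log2 fold changes of 0.79, 0.63 and 0.77. After rescaling they had 0.33, 0.17 and 0.31 and did not pass. All 6 KO values of *Nsdhl* (74.4 to 110 TPM) lay above all 6 WT values (44.0 to 72.5 TPM), and the same held for *Dhcr7* (89.9 to 122 against 45.04 to 87.6 TPM).

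*Ebp*, the isomerase that shifts a double bond in the sterol ring, fell. It was measured at 199, 187 and 208 TPM in WT males, 246, 255 and 313 TPM in WT females, 181, 193 and 136 TPM in KO males and 190, 175 and 177 TPM in KO females. All 3 KO females lay below all 3 WT females, while KO male 2 (193 TPM) exceeded WT male 2 (187 TPM). On the log2 scale the change was -0.41 ± 0.115 (SE; limma adjusted p = 0.00895) on the deposited scale and -0.87 ± 0.128 (adjusted p = 0.00015) after rescaling, and the mean ratio of KO to WT was 0.747 as deposited. *Ebp* (ENSMUSG00000031168) lies on chromosome X from 8185329 to 8193512 (minus strand, GRCm38).

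*Sc5d*, which introduces the double bond after the *Ebp* step, and *Tm7sf2*, a sterol reductase acting earlier, were lower only after rescaling. *Sc5d* ranged from 137 to 368 TPM in WT and from 111 to 222 TPM in KO, and its log2 fold change was -0.51 (adjusted p = 0.0811) as deposited and -0.97 (limma adjusted p = 0.00219) rescaled. Leaving out KO male 3, WT male 1 or WT male 2 made the deposited call of *Sc5d* pass (-0.66, -0.62 and -0.61). *Tm7sf2* had -0.17 and -0.64 on the 2 scales. *Msmo1*, the sterol-C4-methyl oxidase, had 0.13 and -0.33, and *Hsd17b7*, a 3-ketosteroid reductase, had 0.06 and -0.39, and neither passed on either scale.

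The enzymes early and late in the pathway were also compared as sums. The 7 mevalonate enzymes summed to 932 ± 331 TPM (SD, n = 6) in WT and 1577 ± 140 TPM in KO, and the 8 enzymes after lanosterol summed to 1052 ± 296 TPM in WT and 1054 ± 65.1 TPM in KO. After rescaling, the mevalonate sum was 1069 ± 323 in WT and 1329 ± 143 in KO, and the late sum 1206 ± 266 and 889 ± 86.04. A ratio of the sums within a library does not depend on how libraries are scaled. Late over mevalonate enzymes gave 1.13, 1.05 and 1.39 in WT males and 1.23, 1.10 and 1.01 in WT females. KO males had 0.693, 0.677 and 0.635 and KO females 0.703, 0.643 and 0.669. The genotypes did not overlap, with 1.15 ± 0.139 in WT and 0.670 ± 0.0270 in KO. This ratio was formed after the values had been seen and is given without a test.

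**Figure D3:**
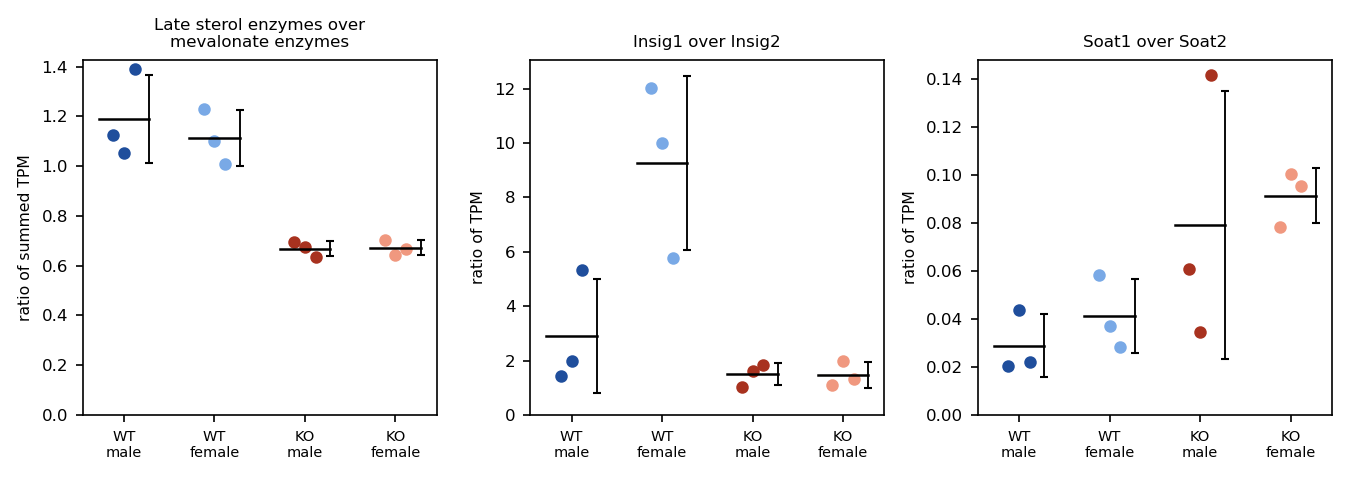
Ratios within each liver by group, with a line at the group mean and a bar for the SD (n = 3): summed TPM of the 8 late sterol enzymes over the 7 mevalonate enzymes, *Insig1* over *Insig2*, and *Soat1* over *Soat2*. The late-to-mevalonate ratio is at least 1.01 in every WT liver and at most 0.703 in every KO liver, while the *Insig1* to *Insig2* ratio of WT females (5.76 to 12.04) stands above every other liver.

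Of the 4 genes of the sterol sensor, *Srebf2* rose. *Srebf2*, which encodes SREBP2 and is also one of its targets, was at 19.2, 25.7 and 20.004 TPM in WT males and 30.9, 27.9 and 36.1 TPM in WT females. KO males had 43.2, 49.5 and 65.0 TPM and KO females 39.8, 59.3 and 49.8 TPM. Every KO liver was above every WT liver. The change in log2 was 0.93 ± 0.157 (SE; limma adjusted p = 0.000262) on the deposited scale and 0.48 ± 0.153 (adjusted p = 0.0256) after rescaling. The rescaled call was lost without WT male 1, WT male 3, WT female 2, KO male 3 or KO female 2, where the rescaled log2 fold change was 0.41, 0.41, 0.45, 0.42 and 0.42. *Srebf2* (ENSMUSG00000022463) lies on chromosome 15 from 82147181 to 82205379 (plus strand, GRCm38).

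*Scap*, the escort of SREBP2, was at 49.7, 57.9 and 65.0 TPM in WT males, 51.9, 57.2 and 94.9 TPM in WT females, 55.7, 59.7 and 70.2 TPM in KO males and 49.8, 62.4 and 60.7 TPM in KO females. The genotypes overlapped, and WT female 3 was the highest liver. Its log2 fold change was -0.04 (adjusted p = 0.82) as deposited and -0.50 (limma adjusted p = 0.0177) rescaled.

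*Insig1*, the retention protein whose gene is itself a strong SREBP2 target, was at 351, 318 and 245 TPM in WT males and 363, 361 and 341 TPM in WT females. KO males had 223, 271 and 409 TPM and KO females 261, 309 and 234 TPM. The females did not overlap by genotype, and KO male 3 was the highest of all 12 livers. The log2 fold change of *Insig1* was -0.23 (adjusted p = 0.217) on the deposited scale and -0.69 ± 0.139 (SE; limma adjusted p = 0.00151) after rescaling, and without KO male 3 the deposited change was -0.36 and passed.

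*Insig2*, the second retention protein, whose liver transcript is known to vary with feeding, differed most between WT livers of all members. It was at 246, 158 and 46.1 TPM in WT males and 30.1, 36.0 and 59.2 TPM in WT females, a coefficient of variation of 91.1% over the 6. KO livers had 213, 169 and 222 TPM in males and 235, 155 and 179 TPM in females, a coefficient of variation of 16.6%. The 6 KO livers all lay above 4 of the WT livers and overlapped the other 2, WT males 1 and 2. The log2 fold change was 1.45 ± 0.377 (SE; limma adjusted p = 0.00544) as deposited and 0.99 ± 0.408 (adjusted p = 0.071) rescaled, and without WT male 1 or WT male 2 the rescaled values were 1.30 and 1.19 and passed.

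The balance of the 2 INSIG transcripts was compared within each liver, a value free of library scaling. *Insig1* over *Insig2* was 1.43, 2.004 and 5.32 in WT males and 12.04, 10.01 and 5.76 in WT females. In KO it was 1.05, 1.61 and 1.85 in males and 1.11, 1.998 and 1.31 in females. The ratio averaged 6.09 ± 4.24 (SD, n = 6) in WT and 1.49 ± 0.393 in KO, a log2 difference of -1.70 (exact permutation test within sex, two-sided, p = 0.02, adjusted p = 0.02 over 2 ratios, smallest possible p = 0.005). WT males 1 and 2 lay close to the KO livers, and WT females accounted for most of the separation. Without the early animal series the difference was -1.76 (exact p = 0.0667).

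**Figure D4:**
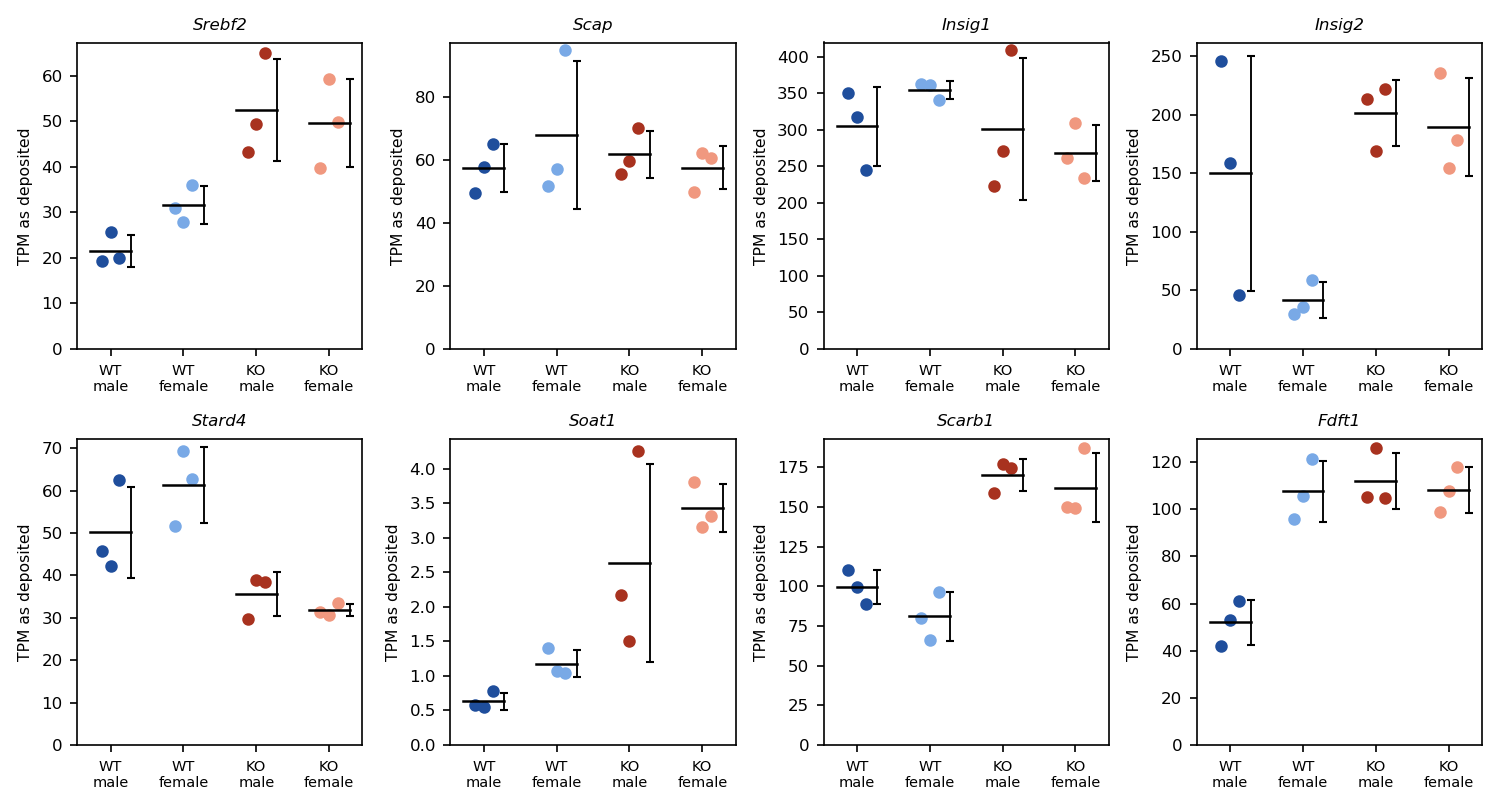
TPM as deposited of 8 genes by group (points are livers, the line is the group mean, the bar is the SD, n = 3; every axis starts at 0). *Srebf2*, *Soat1* and *Scarb1* are higher in all KO than in all WT livers, *Stard4* is lower in all of them, and *Fdft1* is low only in WT males (41.8 to 61.0 TPM).

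*Stard4*, a soluble carrier that moves cholesterol between membranes and is a known SREBP2 target, fell. It was at 45.8, 42.3 and 62.4 TPM in WT males, 51.7, 69.5 and 62.7 TPM in WT females, 29.7, 39.0 and 38.5 TPM in KO males and 31.3, 30.6 and 33.4 TPM in KO females. All 6 KO livers were below all 6 WT livers, an order seen in 1.88% of all tested genes. *Stard4* was the 1 member with it. The gene (ENSMUSG00000024378) lies on chromosome 18 from 33199355 to 33213862 (minus strand, GRCm38). The fall amounted to -0.69 ± 0.134 (SE; limma adjusted p = 0.000742) on the deposited scale and -1.15 ± 0.108 (adjusted p = 3.63e-06) after rescaling. The opposite order, all KO above all WT, was found for 6 members (*Acat2*, *Nsdhl*, *Dhcr7*, *Srebf2*, *Soat1* and *Scarb1*) and for 28.7% of all tested genes.

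Esterification of cholesterol was followed through 3 enzymes, of which *Lcat* is the plasma enzyme. *Soat1*, the acyltransferase of macrophages and most other cells, rose from a low level. It was at 0.575, 0.543 and 0.775 TPM in WT males and 1.41, 1.08 and 1.05 TPM in WT females, and at 2.17, 1.505 and 4.25 TPM in KO males and 3.81, 3.15 and 3.31 TPM in KO females. All KO livers were above all WT livers, and KO male 2 (1.505 TPM) was nearest to WT. The mean was 3.35-fold higher in KO as deposited and 2.45-fold after rescaling, with log2 fold changes of 1.06 ± 0.156 (SE; limma adjusted p = 8.82e-05) and 0.78 ± 0.129 (adjusted p = 0.000383) on the (TPM + 1) scale, which understates changes this close to 0. *Soat1* (ENSMUSG00000026600) lies on chromosome 1 from 156424525 to 156474331 (minus strand, GRCm38).

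Macrophage markers moved with *Soat1*. Their summed TPM (*Adgre1*, *Clec4f*, *Cd68*, *Csf1r*, *Marco*, *Timd4* and *Cd5l*, all above 0 in every library) ranged from 62.9 to 200 in WT and from 305 to 620 in KO, and 6 of the 7 were higher on both scales (20.9% of all tested genes). Their part in the *Soat1* result was not tested. In whole liver, a change in the number of cells of a type and a change in RNA per cell cannot be told apart.

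*Soat2*, the acyltransferase of hepatocytes and intestine, ranged from 12.4 to 37.3 TPM in WT and from 30.0 to 48.7 TPM in KO, with log2 fold changes of 0.47 and 0.02 on the deposited and rescaled scales. It passed on neither. The ratio of *Soat1* to *Soat2* was 0.0349 ± 0.0145 (SD, n = 6) in WT, from 0.0205 to 0.0582, and 0.0851 ± 0.0367 in KO, from 0.0346 to 0.141. Its log2 difference was 1.26 (exact permutation test within sex, two-sided, p = 0.01, adjusted p = 0.02 over 2 ratios), and *Soat2* transcripts stayed far more abundant than *Soat1* in every liver. With a pseudocount of 1 on both genes the difference was 0.59 (exact p = 0.095). *Lcat* had log2 fold changes of 0.09 as deposited and -0.37 (limma adjusted p = 0.0289) rescaled.

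Of the 3 uptake genes, *Scarb1* rose. *Scarb1* encodes SR-BI, the receptor through which hepatocytes take cholesterol esters from HDL. It was at 110, 99.7 and 88.7 TPM in WT males and 80.4, 66.1 and 96.6 TPM in WT females, and at 159, 177 and 175 TPM in KO males and 150, 150 and 187 TPM in KO females. The lowest KO liver was above the highest WT liver. Its rise on the log2 scale was 0.89 ± 0.114 (SE; limma adjusted p = 2.64e-05) as deposited and 0.43 ± 0.137 (adjusted p = 0.0258) rescaled. The rescaled call was lost without WT male 3, WT female 1, WT female 2 or KO female 3, with values of 0.39, 0.40, 0.33 and 0.35. *Scarb1* (ENSMUSG00000037936) lies on chromosome 5 from 125277087 to 125341094 (minus strand, GRCm38).

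*Lrp1*, a large endocytic receptor for lipoprotein remnants, was higher on the deposited scale (0.42, limma adjusted p = 0.00791) and had -0.05 after rescaling. *Mylip*, the ubiquitin ligase that sends lipoprotein receptors for degradation, had 0.02 and -0.35 on the 2 scales, and *Npc1*, which passes cholesterol out of the lysosome, had 0.09 and -0.37. *Mylip* and *Npc1* passed on neither scale.

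Synthesis enzymes had lower means in male than in female WT livers. The order held for all 19 on both scales, and for 14 of the 19 every WT female was above every WT male as deposited, an order seen in 27.5% of all tested genes. As deposited, the median log2 difference of WT males from WT females was -0.61 over the enzymes and -0.19 over all tested genes. After rescaling the medians were -0.39 and -0.013. In KO no enzyme had all females above all males (5.09% of all tested genes), and the female mean was higher for 5 of the 19. On the deposited scale 7 members were lower in WT males than in WT females (4.6% of all tested genes): *Mvk*, *Mvd*, *Fdft1*, *Lss*, *Msmo1*, *Hsd17b7* and *Lcat*. None were higher (1.14% of all genes), and 20 members had an unadjusted p under 0.05 in either direction (25.6% of all genes). *Mvd*, *Fdft1* and *Lcat* kept the deposited call, though not the rescaled one, with any 1 library left out. *Mvk*, *Lss*, *Msmo1* and *Hsd17b7* lost the deposited call in the late animal series alone (-0.55, -0.67, -0.88 and -0.58). After rescaling, 2 were lower (2.27%) and 0 higher (2.11%).

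*Mvd* and *Fdft1* were the 2 members lower in WT males on both scales (2.25% of all genes lower and 1.12% higher on both). These calls on both scales were not firm. They became 0 without WT male 1 or any 1 of the WT females, with a covariate for the early animals and in the late series alone (1.65% to 2.46% of all genes). *Fdft1* was at 41.8, 53.2 and 61.0 TPM in WT males and 96.0, 105 and 121 TPM in WT females, a log2 difference of -1.04 ± 0.159 (SE; limma adjusted p = 0.00182) and -0.82 (adjusted p = 0.0265) rescaled. *Mvd* was at 25.01, 28.1 and 21.4 TPM in WT males and 46.6, 54.1 and 52.0 TPM in WT females, with -1.01 ± 0.183 (adjusted p = 0.00683) and -0.79 (adjusted p = 0.028). In KO the same genes overlapped between the sexes. *Fdft1* had 105, 126 and 105 TPM in KO males and 98.7, 108 and 118 TPM in KO females, and *Mvd* had 37.7, 47.0 and 55.9 TPM in males and 45.5, 39.0 and 58.8 TPM in females.

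The other 5 genes called between the WT sexes did not overlap there either. *Mvk* ranged from 19.5 to 24.0 TPM in WT males and from 29.4 to 43.6 TPM in WT females, and *Lss* from 17.7 to 19.1 and from 25.9 to 34.4 TPM. *Msmo1* ranged from 85.6 to 152 TPM in males and from 215 to 315 TPM in females, *Hsd17b7* from 21.6 to 30.1 and from 36.9 to 40.4 TPM, and *Lcat* from 352 to 396 and from 583 to 602 TPM. Between the sexes in KO, 0 members were called by limma on either scale (0.0814% of all genes on the deposited and 0.0814% on the rescaled scale), with 2 and 1 members at an unadjusted p under 0.05 (5.33% and 5.57% of all genes).

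The estimated genotype effect was more positive in males than in females for each of the 19 enzymes. As deposited, the median male minus female effect was 0.75 over the enzymes and 0.17 over all tested genes, which leaned the same way. After rescaling the medians were 0.52 and -0.015. In males, 20 members were higher in KO as deposited (43.3% of all genes) and 1 lower (2.81%), and after rescaling 6 were higher (13.9%) and 3 lower (10.2%). *Acat2*, *Hmgcs1*, *Idi1*, *Lss*, *Srebf2* and *Soat1* rose in males on both scales (13.9% of all genes) and *Stard4* fell (2.81%). With 1 library left out, 2 to 9 members passed on both scales in males, in either direction (12.7% to 16.7% of all genes). There were 2 without WT male 1, KO male 1 or KO male 2, and 3 with no filter on low values (12.3%). In females, 6 members were higher as deposited (29.1% of all genes) and 3 lower (4.68%), and after rescaling 3 were higher (15.2%) and 8 lower (10.9%). *Insig2*, *Soat1* and *Scarb1* rose in females on both scales (15.2%) and *Ebp*, *Sc5d* and *Stard4* fell (4.68%). These 6 became 3 without WT female 2 (14.2% of all genes in either direction), 4 without KO female 3 (16.1%) and 3 in the late series alone (15.1%).

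As deposited, *Hmgcs1* had log2 fold changes of 1.63 in males and 0.58 in females, and *Insig2* had 0.71 in males and 2.19 in females. The median over the 19 enzymes was 0.95 in males and 0.13 in females, where all tested genes had 0.44 and 0.27. After rescaling the enzymes had 0.39 and -0.22, and all tested genes -0.04 and -0.03. The late enzymes alone had medians of 0.03 in males and -0.75 in females after rescaling.

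The difference between the sexes was itself tested as the interaction of genotype and sex. *Fdft1* was called on the deposited scale (0.912% of all genes), with a male minus female effect of 1.09 ± 0.225 (SE; limma adjusted p = 0.0405), and 0 members were called after rescaling (0.839%). With any library other than WT male 3 left out, *Fdft1* had values from 0.95 to 1.17. Those fits called 0 members as deposited, except the 1 without WT female 1, which called 1 member (0.626% of all genes). Without WT male 3 there were 2 (1.43%). In the fit of all libraries *Lss* came next after *Fdft1* (0.94, limma adjusted p = 0.0571). At an unadjusted p under 0.05 there were 17 members as deposited (8.85% of all tested genes) and 7 after rescaling (7.58%). For the other 30 members a difference between the sexes was therefore not established by this test in the fit of all libraries. The estimate was positive for all 19 enzymes on both scales, but they were measured in the same livers, so their shared sign is no separate support. For 3 members every KO male was above every WT male while every KO female was below every WT female (0.391% of all tested genes).

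**Figure D5:**
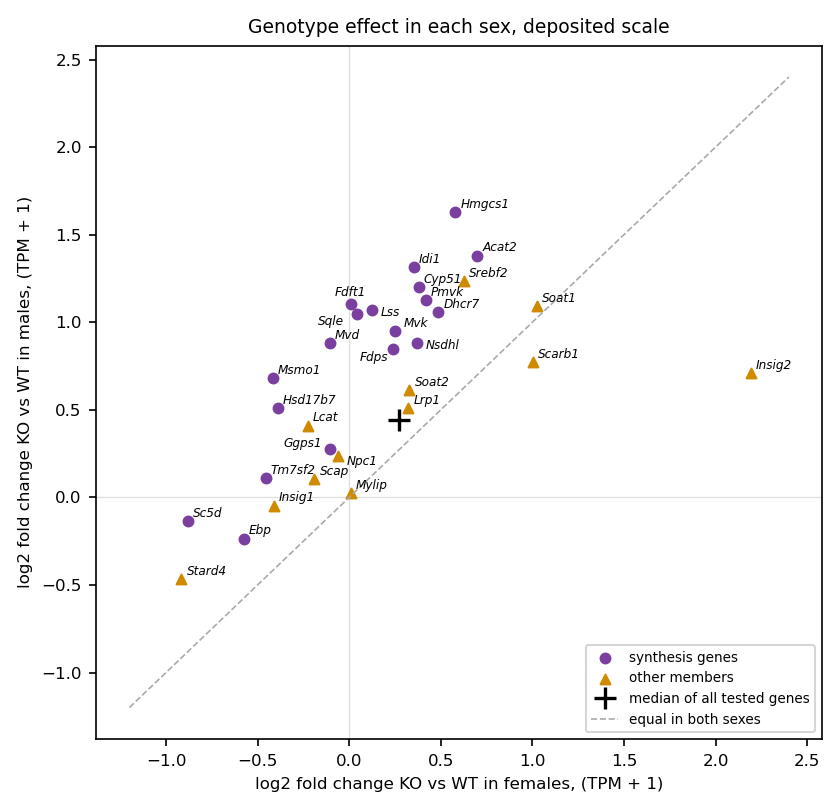
Genotype effect in females (horizontal) against males (vertical) as log2 fold changes of (TPM + 1) on the deposited scale, with 1 point per gene and the dashed line marking equal effects; both axes use separate animals. All 19 synthesis genes lie above the dashed line, and *Insig2* (2.19 in females, 0.71 in males) lies farthest below it. The cross marks the median of all tested genes (0.27 in females, 0.44 in males), which also lies above the line.

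Over the 6 livers of a genotype, which pool the sexes, the coefficient of variation of TPM was lower in KO than in WT for all 19 synthesis enzymes, with a median of 14.03% in KO and 29.3% in WT, and for 28 of the 31 members. *Insig1*, *Lrp1* and *Mylip* were the exceptions. Over all tested genes the medians were 21.004% and 23.6%, and 7381 of 12278 genes had the smaller value in KO. The WT value contains the difference between the sexes described above, and within a sex the order did not hold for all enzymes. Among males 13 of the 19 had the smaller value in KO (53.0% of all genes with a value), with medians of 14.1% in KO and 17.2% in WT, and *Mvk*, *Mvd*, *Fdps*, *Lss*, *Tm7sf2* and *Ebp* did not. Among females 13 of the 19 also had the smaller value in KO (43.1% of all genes with a value), with medians of 15.4% and 20.7%, and *Mvd*, *Ggps1*, *Sqle*, *Cyp51*, *Hsd17b7* and *Sc5d* did not. Each of these values rests on 3 livers. WT female 3, of the early animal series, was the highest WT liver for 15 of the 19 enzymes, and KO female 1, of the same series, was the lowest KO liver for 10. WT male 1 was the lowest WT liver for 10. With the late series alone, 10 members instead of 6 passed on both scales in either direction, while the share of all tested genes that did so went from 25.7% to 22.5%, the additions being *Hmgcs1*, *Idi1*, *Cyp51* and *Dhcr7* with rescaled log2 fold changes of 0.87, 0.58, 0.53 and 0.46.

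Genes around these members were taken from lists of sterol biology, 46 genes of which 44 could be tested. Of these, *Ch25h* and *Gramd1b* averaged under 0.5 TPM in WT and entered the test only through their KO values, so they were left out of the counts. All 31 members averaged at least 0.5 TPM in each genotype. KO livers had higher levels of 6 and lower levels of 3 of the remaining 42 on both scales. The 11474 genes that averaged at least 0.5 TPM in each genotype had shares of 18.03% higher and 4.49% lower. Among 8 genes of SREBP processing and sterol-regulated degradation 2 rose (18.03% of those genes). *Rnf145*, a ubiquitin ligase of the endoplasmic reticulum that acts on SCAP, went from 5.77 ± 3.00 TPM (SD, n = 6) to 13.9 ± 2.66 TPM, and *Mbtps2*, the site-2 protease that releases active SREBP, from 1.81 ± 0.294 to 3.62 ± 0.442 TPM. Neither gene overlapped between genotypes.

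Among the 6 genes of the liver X receptors and sterol efflux without *Ch25h*, 1 rose and 2 fell (18.03% and 4.49% of those genes). *Abcg1*, a cholesterol exporter of macrophages and other cells, rose from 1.52 ± 0.350 to 5.19 ± 1.68 TPM. *Ch25h*, which makes 25-hydroxycholesterol, was at 0.0633 ± 0.0748 TPM in WT, with 2 livers listed at 0, and at 1.00 ± 0.499 TPM in KO. *Abcg8*, a subunit of the transporter that secretes cholesterol into bile, fell from 49.3 ± 16.1 to 20.1 ± 4.00 TPM, with all KO livers below all WT livers. *Abcg5*, which encodes the other subunit, also fell (68.1 ± 27.97 to 38.3 ± 9.15 TPM). *Abcg5* lay outside the naming rule and was added after its values were seen.

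Of the 8 genes of lysosomal and membrane-contact cholesterol transport without *Gramd1b* 3 rose (18.03% of those genes), among them *Lipa* (107 ± 18.4 to 242 ± 38.2 TPM), lysosomal acid lipase, and *Npc2* (37.5 ± 12.4 to 73.1 ± 13.6 TPM), the soluble partner of *Npc1*. *Gramd1b*, a sterol carrier at contacts of the endoplasmic reticulum and plasma membrane, was at 0.344 ± 0.129 TPM in WT and 3.46 ± 1.32 TPM in KO. None of the 10 genes of isoprenoid use and none of the 6 tested genes of lipoprotein receptor endocytosis passed on both scales. *Acat1*, the mitochondrial thiolase, fell (183 ± 41.1 to 119 ± 8.29 TPM), opposite in direction to its cytosolic relative *Acat2*.

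In the authors' deposited table, *Acat2*, *Pmvk* and *Soat1* are higher in KO at an FDR p-value under 0.05 (14.9% of the 17332 genes compared there) and *Tm7sf2*, *Ebp*, *Insig1* and *Stard4* are lower (9.27%). The authors' deposited table gives log2 fold changes of 0.65 for *Acat2*, 1.61 for *Soat1*, -0.79 for *Ebp* and -1.12 for *Stard4*. For *Srebf2* and *Scarb1* the authors' deposited table gives 0.43 and 0.21, with FDR p-values of 0.09 and 0.54.

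Markers of other cells were measured beside these results. Bile duct markers (*Krt7*, *Krt19*, *Epcam*, *Sox9*, *Cftr*, *Spp1*, *Cldn4*) summed to between 27.8 and 58.6 TPM in WT and between 252 and 714 TPM in KO, of which *Spp1* made up between 232 and 702 TPM in KO, and 2 of the 7 (*Cftr* and *Cldn4*) were at 0 in some libraries. Of the 4 bile duct markers that averaged at least 0.5 TPM in each genotype, *Sox9* and *Spp1* rose and *Epcam* fell on both scales. *Cldn4* entered the test only through its KO values and was between 0 and 0.602 TPM in WT and between 0.472 and 1.58 TPM in KO. *Epcam* was between 0.593 and 1.55 TPM in WT and between 0.339 and 0.756 TPM in KO, and *Krt19*, which passed on neither scale, between 0.738 and 2.26 TPM in WT and between 0.0552 and 2.17 TPM in KO. Markers of stellate cells and fibroblasts summed to 63.4 to 167 TPM in WT and 120 to 296 TPM in KO, and those of endothelium to 56.5 to 88.9 and 33.8 to 127 TPM. Lymphocyte markers summed to 2.71 to 7.88 TPM in WT and 6.70 to 14.4 TPM in KO, and neutrophil markers to 0.218 to 20.2 and 12.1 to 45.6 TPM. Some genes of these lists passed on both scales, with *Col1a1* and *Pdgfrb* of the 7 stellate and fibroblast markers, *Ptprc* of the 4 lymphocyte and *Csf3r* of the 4 neutrophil markers higher (20.9% of all genes), and *Kdr* of the 6 endothelial markers lower (4.81%). Their part in the results was not tested.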

How the data were processed

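Bulk RNA was sequenced from 12 mouse livers, and 1 table of 25676 genes was used. Its values are TPM made by the authors, per the file headers, and each deposited column sums to 1000000. Of the authors' comparison, the log2 fold change and the FDR p-value in the deposited table were read for comparison only. The submitters' processing notes name edgeR and GRCm38 without a role, and the aligner, counter and annotation are not given in the sources used here. Gene positions are from GENCODE mouse release 21 (GRCm38).

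TPM were analysed as log2(TPM + 1) with a pseudocount of 1, for the 12278 genes averaging 0.5 TPM or more, by limma 3.58.1 (lmFit, eBayes with trend) in R 4.3.3. The genotype fit had sex as a covariate. Effects within and between the sexes and the interaction came from 1 model of the 4 group means. Tests were two-sided, with Benjamini-Hochberg adjustment over all tested genes and a threshold of 0.05. Each fit was repeated after median-of-ratios rescaling, with size factors of 0.724 to 0.949 in WT and 1.09 to 1.34 in KO. The 2 ratios were tested by exact permutation of genotype within sex (400 arrangements). Whole reads were recovered from the TPM steps for 92.9% of the 17332 genes above 0 (16108, within 0.03 of a whole read), giving 17956574 to 25517977 reads per library. A limma-voom fit on these reads called 5087 of 12912 genes.

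Replicates of a group differed beyond counting noise (chi-square per degree of freedom of 26.6 to 137 over 12 pairs). The labels name separate animals by number. Replicates were numbered by order of deposition and pair no samples. Fits were tested on simulated data. Alternatives were another pseudocount and filter, no intensity trend, TPM without the 20 most abundant genes, a covariate for the early animals and each library left out. The genes, gene lists and naming rule were chosen with earlier results of these data known. The rule gave every member by role, in full for members called on both scales or between the sexes and for the sensor genes, and up to 3 genes of each further list that passed on both scales. Some items are not reported here.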

Additional observations from a re-analysis of the deposited data

Results flagged for a closer look

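Single livers stood apart from the other 5 of their genotype in 4 of the 62 groups of 6 checked by Dixon's test on log2(TPM + 1), where chance alone flags about 1 group in 20. *Tm7sf2* was at 132 TPM and *Msmo1* at 234 TPM in KO male 2, both above the other KO livers. *Ebp* was at 136 TPM in KO male 3, below the other KO livers. *Insig1* was at 245 TPM in WT male 3, below the other WT livers.

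For *Fdft1* the genotype effect in males exceeded that in females by 1.09 on the log2 scale (limma adjusted p = 0.0405), which did not pass after rescaling (0.87, adjusted p = 0.315). In 3 genes every KO male was above every WT male while every KO female was below every WT female as deposited, as in 0.391% of all tested genes. These were *Msmo1*, *Hsd17b7* and *Lcat*, with male minus female effects of 1.10, 0.90 and 0.64. This opposite order was not tested as such, and the interaction term of the 3 genes did not pass (adjusted p = 0.194, 0.15 and 0.206).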

How the results depend on the processing

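The 6 members called on both scales kept their direction under every alternative run. *Acat2*, *Ebp*, *Stard4* and *Soat1* also kept both calls in each of the 12 fits that left out 1 library, *Scarb1* in 8 and *Srebf2* in 7, while *Soat1* fell below a filter of mean TPM of at least 2. No paired analysis was possible because the labels give no replicate numbers. Alternatives chosen after seeing the data were limma-voom on recovered reads and the late animal series alone. The 19 members called between genotypes (54.9% of all tested genes) became 12 with limma-voom (5 higher, 7 lower; 39.4%), 11 with median-of-ratios rescaling (39.6%) and 7 at the smallest exact permutation p, and 17 to 20 with 1 library left out (51.0% to 55.9%). The share of all genes at that permutation p was not computed. Those 7 were the members with all KO above or all KO below all WT livers, orders seen in 28.7% and 1.88% of all tested genes. The 6 called on both scales (25.7% of all tested genes) became 10 in the late series alone (22.5%) and 4 to 9 with 1 library left out (22.7% to 27.3%). There were 9 without WT male 2 (27.3%) or KO female 1 (24.1%), and 4 without WT female 2 (22.7%) or WT male 3 (23.5%). The 21 called in males (46.1%) became 9 after rescaling (24.1%). The 1 interaction call (0.912% of all tested genes) became 0 with no filter on low values, with no intensity trend, with a covariate for the early series, in the late series alone and after rescaling, (0.531% to 0.871%), and 0 to 2 with 1 library left out (0.61% to 1.43%). The 7 sex differences in WT (5.74%) became 3 in the late series alone (3.75%), 2 after rescaling (4.38%) and 3 to 10 with 1 library left out (2.35% to 13.8%; 4 and 2.46% without WT female 2, 3 and 3.63% without WT female 3). The members' median log2 fold change of 0.54 became 0.083 with limma-voom and 0.079 after rescaling. The log2 difference in the Insig1 to Insig2 ratio was -1.76 without the early series (exact p = 0.0667; -1.90 to -1.42 with 1 library left out), and that in the Soat1 to Soat2 ratio was 0.59 with a pseudocount of 1 (exact p = 0.095; 0.99 to 1.49 with 1 library left out). Among members called on neither scale or on 1, signs changed as follows, with limma-voom first and rescaling second: *Mvd* -0.073 and -0.067, *Ggps1* -0.35 and -0.26, *Msmo1* -0.32 and -0.33, *Hsd17b7* -0.40 and -0.39, *Lcat* -0.37 and -0.37, *Lrp1* -0.045 and -0.046, *Mylip* -0.41 and -0.35, *Npc1* -0.37 and -0.37. Without the 20 most abundant genes *Hsd17b7* had -0.015 and *Mylip* -0.048, and in the late series alone *Scap* had 0.13 and *Mylip* -0.091. With 1 library left out, *Ggps1* ranged from -0.035 to 0.19, *Msmo1* from -0.046 to 0.26, *Hsd17b7* from -0.036 to 0.17, *Scap* from -0.10 to 0.090, *Mylip* from -0.12 to 0.14 and *Npc1* from -0.013 to 0.18. Apart from the change of scale, whose shift of all genes is given above, the cause was not tested. The rescaled and deposited fits use the same reads, so depth limits both alike, most for *Soat1* with as few as 53 reads.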
